A study of Rattus norvegicus with 8 samples.

Results

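H19 and 9 other imprinted growth genes were followed on 8 rat arrays. The genes were H19, Igf2, Igf2r, Dlk1, Peg3, Mest, Cdkn1c, Grb10, Plagl1 and Ndn. Probes were chosen by the RefSeq accession that the array gave them, and 9 probes for 7 of the 10 genes were found among 24684 probes, which covered 13903 RefSeq genes. Cdkn1c had 3 probes, 1 for each of 3 transcript records, and H19, Igf2, Igf2r, Dlk1, Plagl1 and Ndn had 1 each. Peg3, Mest and Grb10 had no matching probe and were not analysed here.

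The RNA came from male F344 rats at week 95. Lung tumors (3 samples) and matched normal lung tissues (3 samples) were both taken from rats treated with NNK, a nitrosamine of tobacco smoke that is carcinogenic in the lung, so that the normal lung samples were exposed too. The tumors were moderately differentiated adenocarcinomas, per the methods of the study. Clots of whole blood gave 1 sample of the control group and 1 of the NNK-treated group. For the NNK blood sample 1 label field held the text of a lung tumor, but every other field gave blood clot, which was taken as its tissue. The comparison of lung tumor with normal lung asks which transcripts change in tumors induced by NNK, and that of the blood samples asks the same for circulating blood.

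Genomic imprinting is the expression of a gene from 1 parental copy, set by DNA methylation that differs between the maternal and the paternal chromosome. Many imprinted genes control growth before birth and decline in most tissues afterwards. Igf2, a fetal growth factor, is expressed from the paternal copy, and its neighbour H19, a long non-coding RNA, from the maternal copy, and both use the same enhancers. Igf2r binds IGF2 and carries it to lysosomes. Cdkn1c encodes p57Kip2, an inhibitor of cyclin-dependent kinases. Plagl1 encodes a zinc finger transcription factor known to regulate other imprinted genes. Dlk1 encodes a membrane protein with EGF-like repeats, and Ndn encodes necdin, a protein of the MAGE family.

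H19 is also the host transcript of a microRNA. Both mature forms are shown because they are the short products of the transcript that the H19 probe measured, although the array did not measure them. The sequences are from RefSeq (GRCr8), 5′ to 3′, with the seed (bases 2 to 8) in capitals.
rno-miR-675-5p, chr1:207161800-207161821, - strand: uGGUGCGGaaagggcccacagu
rno-miR-675-3p, chr1:207161766-207161786, - strand: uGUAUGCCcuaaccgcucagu
The seeds of the 5p and 3p forms differ, so the forms do not belong to a common seed group.

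Promoters are shown for Dlk1, Plagl1 and Ndn, which were lower in tumor, and for Igf2r, which did not pass the test. Each runs from 250 bases before to 50 bases after the start of the gene in RefSeq (GRCr8). Capitals mark the GC box GGGCGG on either strand (CCGCCC on the other), and no other motif that was searched overlapped it.
Dlk1, chr6:134192347-134192646, + strand: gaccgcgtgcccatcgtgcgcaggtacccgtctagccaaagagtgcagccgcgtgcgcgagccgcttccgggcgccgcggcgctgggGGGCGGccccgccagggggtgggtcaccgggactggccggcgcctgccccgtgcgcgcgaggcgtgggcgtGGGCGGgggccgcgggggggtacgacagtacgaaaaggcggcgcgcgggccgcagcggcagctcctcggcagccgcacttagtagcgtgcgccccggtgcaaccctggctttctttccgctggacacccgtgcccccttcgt
Plagl1, chr1:9297214-9297513, + strand: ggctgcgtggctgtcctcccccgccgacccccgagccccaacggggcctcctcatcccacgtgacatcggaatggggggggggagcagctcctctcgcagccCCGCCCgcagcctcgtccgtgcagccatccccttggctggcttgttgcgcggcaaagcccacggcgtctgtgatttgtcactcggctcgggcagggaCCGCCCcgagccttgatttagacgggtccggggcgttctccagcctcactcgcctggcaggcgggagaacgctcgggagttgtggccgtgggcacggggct
Ndn, chr1:125260809-125261108, + strand: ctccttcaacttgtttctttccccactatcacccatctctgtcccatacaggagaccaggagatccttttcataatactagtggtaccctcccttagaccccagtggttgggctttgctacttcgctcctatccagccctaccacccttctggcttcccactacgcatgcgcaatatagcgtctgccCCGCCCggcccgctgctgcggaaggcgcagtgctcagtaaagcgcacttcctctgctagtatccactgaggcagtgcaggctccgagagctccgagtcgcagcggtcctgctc
Igf2r, chr1:50526628-50526927, + strand: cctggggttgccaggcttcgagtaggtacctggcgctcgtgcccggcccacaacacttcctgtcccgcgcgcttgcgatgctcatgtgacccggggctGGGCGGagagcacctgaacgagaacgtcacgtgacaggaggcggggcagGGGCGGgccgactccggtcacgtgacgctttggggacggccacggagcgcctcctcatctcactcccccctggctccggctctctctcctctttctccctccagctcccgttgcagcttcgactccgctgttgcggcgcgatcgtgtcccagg
These promoters held 45 (Dlk1), 29 (Plagl1), 14 (Ndn) and 30 (Igf2r) CG dinucleotides, against a median of 7 over 33469 promoters of the same length. The promoter of Dlk1 had more CG dinucleotides than 98.3% of them. The GC box was found in 6 of 6 promoters of these genes (2 of Igf2 and 1 each of the other 4 genes) and in 33.1% of all promoters. The TATA box TATAAA was found in 0 of 6 and in 14.2% of all promoters, and the Plagl1 element GGGGCCCC in 0 of 6 and in 0.858%. The promoter table matched no entry for H19 and Cdkn1c.

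The 6 lung arrays were similar in brightness, with a 75th percentile of processed signal between 1191 and 1329, whereas it was 95.36 for control blood and 205.8 for NNK blood. No spot was saturated. The 3 normal lung arrays differed from each other by 0.819 to 1.37 times the noise between spots of the same probe, and lung tumors 2 and 3 by 0.591 times, whereas lung tumor 1 differed from the other tumors by 6.25 and 6.42 times. The normal lung arrays, and lung tumors 2 and 3, thus differed by about the noise of the array, and means ± SD below count each set as 1 sample (normal lung n = 1, lung tumor n = 2). The p-values measure only the spread between arrays, which may be technical. The file headers showed that the 3 normal lung arrays were scanned together with lung tumor 1, and lung tumors 2 and 3 in another scan. Of the spots above background, 4.92% to 8.62% carried an outlier mark in normal lung and 15.9% to 25.3% in lung tumor. Markers of alveolar type 2 cells, the surfactant-producing cells of the lung, were well above background on lung arrays for 7 of 7 probes, and markers of red blood cells were so on both blood arrays for 7 of 7 probes.

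On the lung arrays, H19 was higher in tumor, 6 probes of Dlk1, Plagl1, Cdkn1c and Ndn were lower, and Igf2 and Igf2r did not reach the threshold. A probe was called at a change of at least 2-fold with an adjusted p of at most 0.05 in limma. On each of the 6 lung arrays the 9 probes were all well above background, so the filter on dim probes removed none of them. Of the 9 probes, 1 was called higher and 6 lower. Over all 12471 probes tested, 29.0% were called, 13.5% higher and 15.5% lower. Igf2 and Dlk1 had outlier marks on all 3 tumor arrays, and their values came from the fit that kept marked spots, in which 27.9% of 15803 probes were called, 13.5% higher and 14.4% lower. The median log2 fold change over all probes was 0.07 (0.06 with marked spots kept), and that of the 9 probes with marked spots kept was -2.53. Of the 6 probes called lower, 3 were of Cdkn1c, and the median is the value of 1 of these, so counts of probes are not counts of genes.

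**Figure D1:**
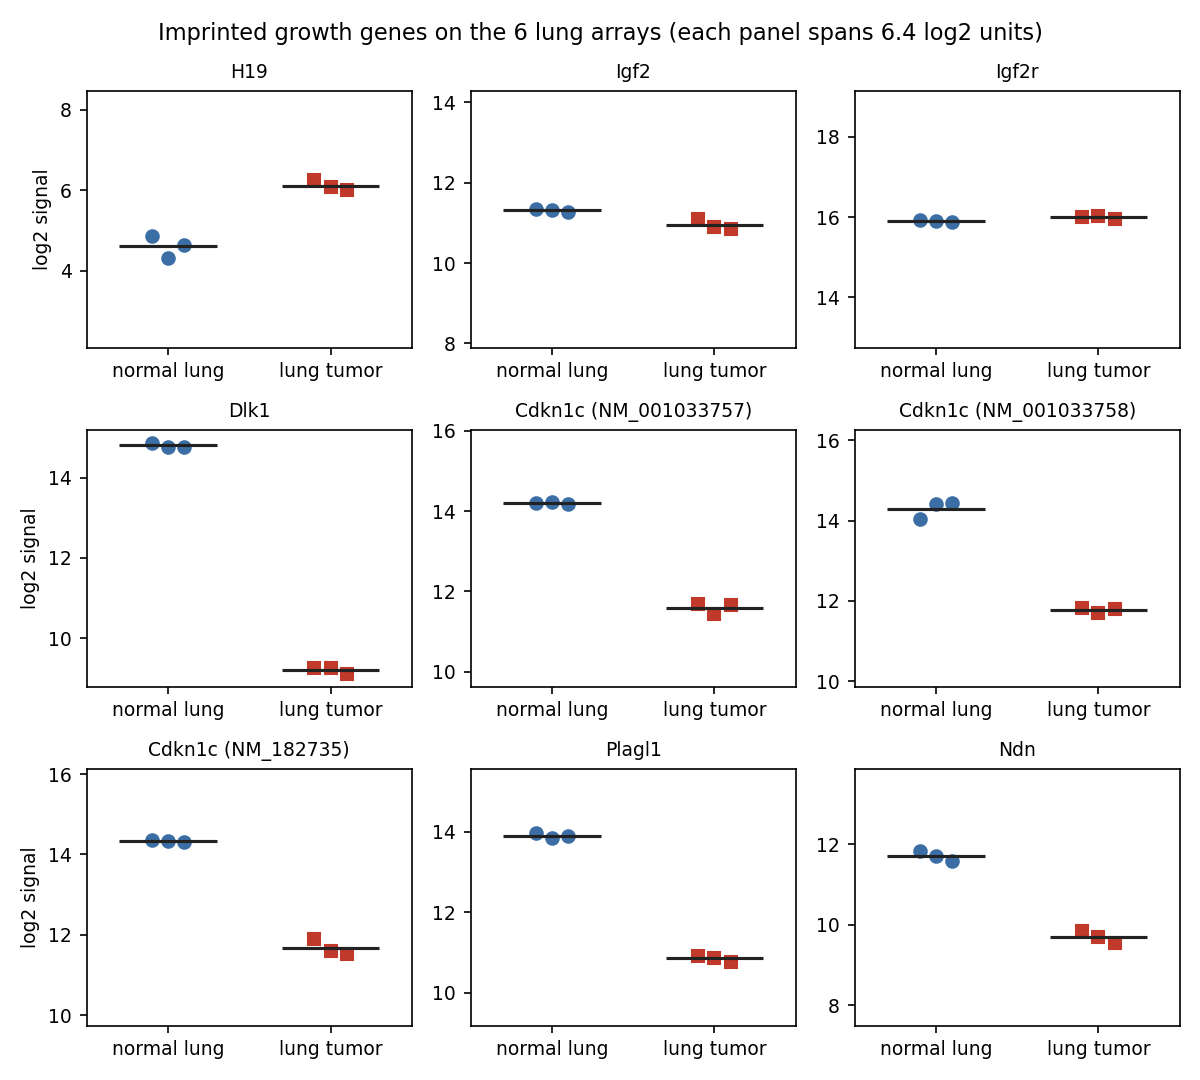
Quantile-normalized log2 signal of the 9 probes on each of the 3 normal lung and 3 lung tumor arrays, with the same height of scale in every panel. Points are arrays and lines are means over 3 arrays. H19 was 2.86-fold higher in tumor, Dlk1 was 48.2-fold lower, and Igf2r differed by 0.09 on the log2 scale.

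H19 is an RNA that restrains growth and is abundant in the fetus. Its normalized log2 signal was 4.86, 4.31 and 4.65 in normal lung 1, 2 and 3. It was 6.26, 6.08 and 6.02 in lung tumor 1, 2 and 3. All tumor arrays lay above all normal arrays. The log2 fold change was 1.52 (SE 0.158, 2.86-fold, limma adjusted p = 0.000573), with a tumor mean of 6.15 ± 0.15 (SD, n = 2) when near-identical arrays were counted once. Tumor 1, which shared the scan of the normal arrays, was 1.65 above their mean. The study also measured this transcript by quantitative PCR in a larger set of paired tumor and normal lung tissues. It reported that the difference was not significant there, so the rise on the arrays was not borne out by that measurement.

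The probe of H19 was printed in 3 spots on each array, and the spots were dim. Their processed signals, after subtraction of background, were 20.4, 29.7 and 24.6 in normal lung 1, 22.2, 16.1 and 24.1 in normal lung 2, and 19.5, 19.7 and 29.2 in normal lung 3. They were 73.6, 78.6 and 75.7 in lung tumor 1, 72.7, 66.9 and 89.2 in lung tumor 2, and 79.7, 59 and 92.1 in lung tumor 3. The lowest tumor spot was thus above the highest normal spot. The median local background of these spots was between 38 and 41.5, and 1 of the 3 spots of normal lung 2 was not well above it. On lung tumor 1, 1 spot carried an outlier mark and was left out of the fit. When background was corrected by normexp with an offset of 50, the log2 fold change of H19 was 0.60 (limma adjusted p = 0.00021), below the 2-fold threshold.

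**Figure D2:**
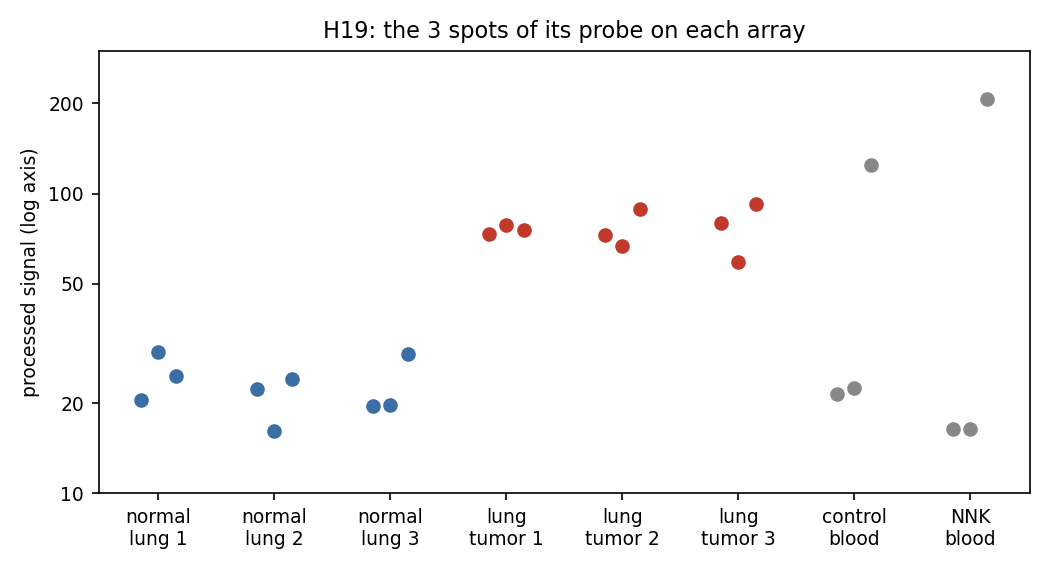
Processed signal (log axis) of the 3 spots of the H19 probe on each of the 8 arrays, where each point is 1 spot. The 9 tumor spots lie between 59 and 92.1 and the 9 normal spots between 16.1 and 29.7. On each blood array 1 spot, at 125 and 207, lies far above the other two and carried an outlier mark.

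Igf2, the growth factor encoded next to H19, was measured at a log2 signal of 11.35, 11.31 and 11.27 in normal lung and at 11.10, 10.90 and 10.84 in lung tumor. The groups did not overlap, but the difference was small. The log2 fold change was -0.36 (95% interval -0.57 to -0.16, limma adjusted p = 0.0114), below the 2-fold threshold. Within the shared scan, tumor 1 was lower than the normal mean by a log2 difference of -0.21.

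Igf2r, the receptor that clears IGF2, was bright in both tissues. Its log2 signal was 15.92, 15.91 and 15.88 in normal lung and 16.01, 16.02 and 15.94 in lung tumor. The log2 fold change of 0.09 did not pass the test (95% interval -0.04 to 0.21, limma adjusted p = 0.181). Its tumor arrays also all lay above its normal arrays, so lack of overlap between these arrays says little by itself. The share of all probes without overlap was not counted. The interval lies within a 2-fold change in either direction. It rests only on the spread between arrays, which may be technical, and so does not bound the difference between the tissues.

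Dlk1 showed the largest difference of the 9 probes. Its log2 signal was 14.87, 14.77 and 14.77 in normal lung and 9.27, 9.25 and 9.12 in lung tumor. This was 48.2-fold lower in tumor (log2 fold change -5.59, SE 0.0664, limma adjusted p = 1.52e-06), and 18 of the 15803 probes had a lower fold change. The signal in tumor was still well above background on 3 of 3 arrays.

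Plagl1, the zinc finger factor, had a log2 signal of 13.98, 13.85 and 13.89 in normal lung and of 10.91, 10.86 and 10.77 in lung tumor. Every tumor array was lower than every normal array, by 8.33-fold in the mean (log2 fold change -3.06, SE 0.0658, limma adjusted p = 4.63e-06).

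Cdkn1c, the inhibitor of cyclin-dependent kinases, was lower in tumor with each of its 3 probes. The probe of NM_001033757 read 14.20, 14.22 and 14.18 in normal lung and 11.69, 11.44 and 11.65 in lung tumor. The probe of NM_001033758 read 14.05, 14.41 and 14.43 in normal lung and 11.82, 11.70 and 11.80 in lung tumor. The probe of NM_182735 read 14.36, 14.33 and 14.31 in normal lung and 11.89, 11.61 and 11.52 in lung tumor. The 3 probes gave similar differences although they were designed on different transcript records. The log2 fold changes were -2.61 (SE 0.0813), -2.53 (SE 0.12) and -2.66 (SE 0.107), with limma adjusted p of 9.03e-06, 3e-05 and 1.8e-05. They target the same gene and are not independent measurements of it.

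Ndn, which encodes necdin, had a log2 signal of 11.84, 11.71 and 11.59 in normal lung and of 9.85, 9.70 and 9.54 in lung tumor. It was 4.05-fold lower in tumor (log2 fold change -2.02, SE 0.108, limma adjusted p = 4.6e-05). For the 6 probes called lower, tumor 1 alone differed from the normal arrays of its own scan by -1.86 (Ndn) to -5.53 (Dlk1) on the log2 scale. With near-identical arrays counted once, normal lung was a single sample that limma assumed to vary like the tumors, and the adjusted p of the 7 probes lay between 0.0283 (Dlk1) and 0.0462 (H19). This fit has no spread of normal lung and adds no support to the calls.

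In whole tissue, fewer cells of a type and less RNA per cell cannot be told apart, and markers of several cell types moved with these genes. Over all probes tested, 13.5% were called higher and 15.5% lower (13.5% and 14.4% with marked spots kept). The sums below are over the probes of the fit with marked spots kept, which can be more than those counted. Mesothelial markers were lower in tumor for 3 of 3 probes tested. Their summed normalized signal was 39000 to 41900 in normal lung and 4540 to 4920 in lung tumor. Endothelial markers were lower for 2 of 2 probes tested, or for 3 of 3 with marked spots kept, with sums of 205000 to 214000 and of 36800 to 37100. Markers of alveolar type 1 cells, the flat cells of gas exchange, were lower for 4 of 6, or for 6 of 9 with marked spots kept. Their sums were 1660000 to 1680000 and 520000 to 546000. Red blood cell markers were lower for 5 of 7, with sums of 221000 to 229000 and of 131000 to 140000. Liver markers were lower for 7 of 7, with sums of 24500 to 25700 and of 1640 to 3390. Fibroblast markers were lower for 1 of 3, or for 3 of 7 with marked spots kept, with sums of 242000 to 261000 and of 182000 to 186000. Type 2 markers were called for 0 of 6 probes, and for 1 of 7, Sftpc at 1.14, with marked spots kept. The 6 log2 fold changes lay between -0.30 and 0.99. At an unadjusted p under 0.05 in limma, 4 were above 0 and 2 below 0. Of all probes tested, 65.1% passed even an adjusted p of at most 0.05 in limma. The methods' t-test also called 0 type 2 probes. The sums of type 2 markers were 1010000 to 1050000 in normal lung and 1190000 to 1210000 in lung tumor. Neutrophil markers were lower for 1 of 4, or for 3 of 6 with marked spots kept, with sums of 14400 to 15200 and of 3620 to 4520. Platelet markers were lower for 3 of 3, whereas their sums, with Pf4 included, were 4930 to 5270 and 7750 to 9070. Not all lists moved down. Adipoq was higher by a log2 fold change of 5.27 among 3 adipocyte probes tested (sums of 8670 to 8980 and of 13800 to 15300), and 1 of 5 macrophage probes and 1 of 2 airway probes were higher. With marked spots kept, 1 of 4 airway probes was higher and 1, Sec14l3, was lower by a log2 fold change of -3.26. Of smooth muscle 1 of 3 probes and of T cells 1 of 5 were lower. The part of these cell types in the values of Dlk1, Plagl1, Cdkn1c and Ndn was not tested.

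H19, Igf2 and Cdkn1c lie in neighbouring imprinted domains on rat chromosome 1, and the genes measured between and beside them, in the order of the reference, did not move together. Mrpl23, a mitochondrial ribosomal protein gene beside H19, was higher in tumor by a log2 fold change of 1.12 (limma adjusted p = 6.27e-05, marked spots kept). On the Igf2 side, Ins2 was not well above background on any lung array, and Th, Ascl2, Cd81 and Tssc4 were not called, with log2 fold changes between -0.78 and 0.30. Kcnq1, a potassium channel gene that precedes Cdkn1c, read 10.23, 10.35 and 10.44 in normal lung and 11.78, 12.52 and 12.67 in lung tumor. It was higher by a log2 fold change of 1.98 (limma adjusted p = 0.0012), in the opposite direction to Cdkn1c. Beyond Cdkn1c, Slc22a18, Nap1l4 and Cars1 were not called, and Osbpl5, an oxysterol-binding protein gene, was lower by a log2 fold change of -1.31 (limma adjusted p = 0.000244).

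**Figure D3:**
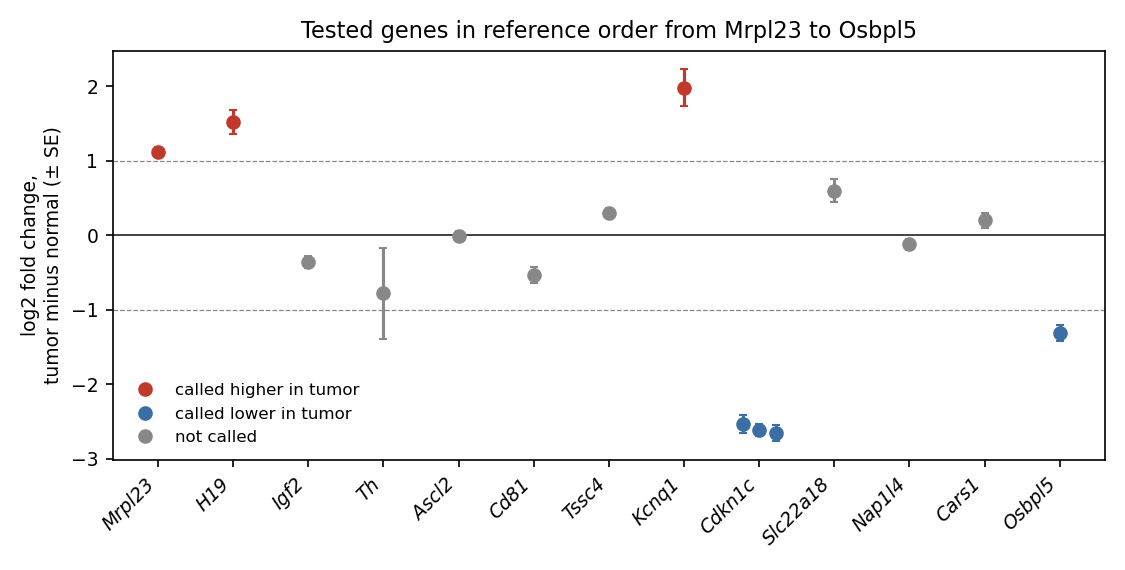
Log2 fold change (tumor minus normal, ± SE) of the tested genes in reference order from Mrpl23 to Osbpl5, with dashed lines at 2-fold. Mrpl23, H19 and Kcnq1 lie above the upper line, and the 3 probes of Cdkn1c and Osbpl5 lie below the lower line. Igf2, Mrpl23 and Cd81 are from the fit with marked spots kept.

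Other imprinted genes were examined as a list of 58, of which 35 had a probe on the array (39 probes). Of 27 probes tested, 2 were called higher and 8 lower, beside 13.5% and 15.5% of all probes, and their median log2 fold change was -0.16 beside 0.07. Kcnq1 and Klf14, a transcription factor gene (log2 fold change 1.04, limma adjusted p = 0.035), were the 2 higher, whereas the methods' t-test called 1 probe higher. Klf14 read 4.68, 4.61 and 4.37 in normal lung and 4.87, 5.94 and 5.95 in lung tumor. Its rise thus lay mainly in the near-identical lung tumors 2 and 3. The calcitonin receptor gene Calcr was lower with both probes (log2 fold change -2.85 and -2.35). Nap1l5, of the nucleosome assembly protein family, was lower by -2.21. Neuronatin (Nnat) was lower with both probes (-2.13 and -1.70), whereas Blcap, the gene around it, was not called (-0.16, limma adjusted p = 0.0598). The amino acid transporter gene Slc38a4 (-1.79), Snrpn (-1.49) and Osbpl5 were also lower. Gatm, a gene of creatine synthesis, was lower by -2.75 with marked spots kept. Dio3, of the same imprinted domain as Dlk1, averaged 6.18 in normal lung and 6.96 in lung tumor, a log2 fold change of 0.79 that was not called.

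The route by which IGF2 signals was represented by 12 probes, of which 8 were tested. None was called higher and 1 was lower, beside 13.5% and 15.5% of all probes, with a median log2 fold change of 0.17. At an unadjusted p under 0.05 in limma, 2 were higher and 1 was lower. Of all 12471 probes tested, 65.1% passed even an adjusted p of at most 0.05 in limma. The methods' t-test also called 0 of the list higher. The probe called lower was that of Igf1r, the receptor through which IGF2 acts. Its log2 signals were 12.77, 12.63 and 12.62 in normal lung and 10.17, 9.74 and 9.94 in lung tumor (log2 fold change -2.72, limma adjusted p = 2.54e-05). The 2 probes of Shc1, an adaptor of growth factor receptors, had log2 fold changes of 0.81 and 0.78, below the threshold. Those of Akt1, Akt2, Grb2, Irs1 and M6pr lay between -0.04 and 0.89, and none was called.

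Among genes that keep imprints, 1 of 6 probes tested was higher and 2 were lower, beside 13.5% and 15.5% of all probes. Their median log2 fold change was -0.23. Trim28, a corepressor that holds methylation at imprinted regions in the embryo, was higher (log2 fold change 1.15, limma adjusted p = 0.00444). It read 14.83, 14.85 and 14.89 in normal lung and 15.55, 16.18 and 16.27 in lung tumor. The rise of Trim28 was thus larger in the near-identical lung tumors 2 and 3 than in tumor 1. Dnmt3l, the cofactor of de novo methyltransferases, was lower by -2.07 and Dppa3, which protects imprints in the zygote, by -1.92. Zfp57, the zinc finger partner of Trim28, had a log2 fold change of 0.90 and was not called.

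The cell cycle genes around Cdkn1c were higher for 5 of 8 probes tested and lower for 1, beside 13.5% and 15.5% of all probes. Their median log2 fold change was 1.68. With marked spots kept, 5 of 12 were higher and 1 was lower, with a median of 0.23. The cyclins Ccnd1, Ccne1 and Ccna2 were higher by log2 fold changes of 2.51, 2.38 and 1.99, with limma adjusted p of 3.74e-05, 1.41e-05 and 1.44e-05. Cdkn2a, an inhibitor of the kinases that cyclin D activates, read 5.48, 5.09 and 5.14 in normal lung and 7.04, 7.04 and 7.05 in lung tumor (log2 fold change 1.81). The related inhibitor Cdkn2b was lower (log2 fold change -1.12). Inhibitors in this list thus differed in direction, whereas the called cyclins were all higher. Ccnd2 was not well above background on any normal array, and it was at least 1.1-fold higher in tumor (limma adjusted p = 0.0127). The general inhibitors Cdkn1a and Cdkn1b, of the same family as Cdkn1c, had log2 fold changes of -0.92 and -0.14 and were not called. Proliferation markers, among them Cdk1 and Plk1, were higher for 2 of 3 probes tested, or for 3 of 4 with marked spots kept. Sums over the latter were 4440 to 4920 in normal lung and 17800 to 26200 in lung tumor. All these lists were read by counts and values only.

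**Figure D4:**
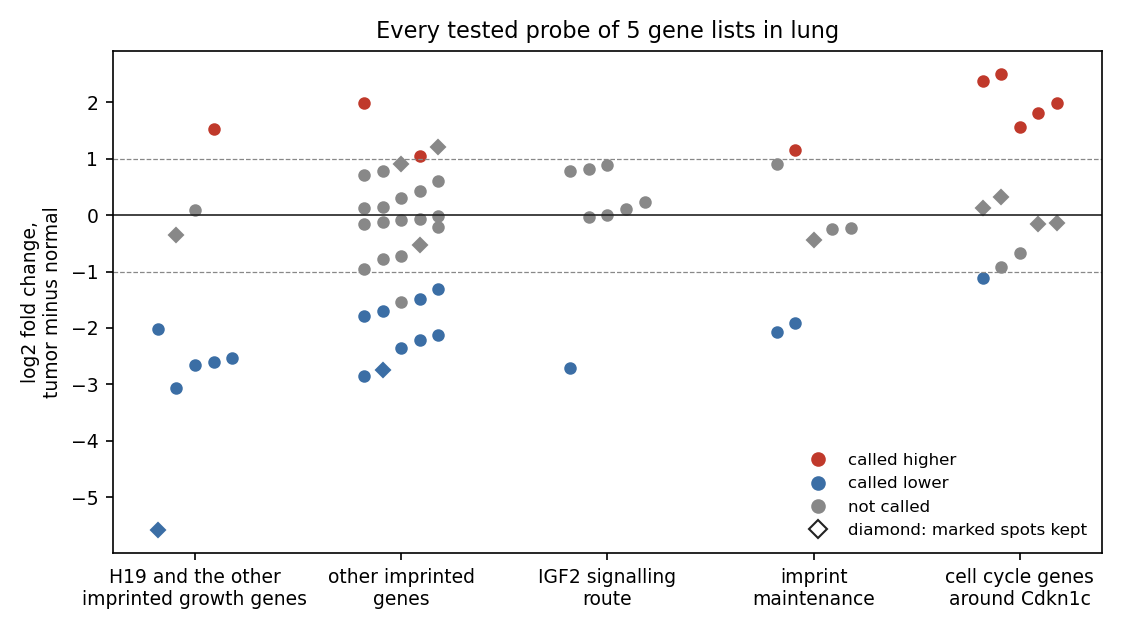
Log2 fold change (tumor minus normal) of every tested probe of 5 gene lists, where each point is 1 probe, diamonds are probes whose value came from the fit with marked spots kept, and dashed lines mark 2-fold. The imprinted growth genes run from -5.59 (Dlk1) to 1.52 (H19), and the other imprinted genes from -2.85 to 1.98.

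In blood there was 1 array per group, so the differences have no replicate check and no test was made. Of the 9 probes, Igf2r was 2-fold or more higher in NNK blood and 1 probe of Cdkn1c 2-fold or more lower. Among 14452 probes, 23.1% were higher and 19.1% lower by that much. Igf2r read 6.83 in control blood and 8.35 in NNK blood, 2.88-fold higher (log2 difference 1.52, or 2.32 after quantile normalization over 8 arrays). The Cdkn1c probe of NM_182735 read 6.68 and 4.91, 3.39-fold lower. Its log2 difference of -1.76 depended on the processing, with -0.83 under normexp, -3.09 after quantile normalization over 8 arrays and -3.21 in the authors' normalized values. H19 read 5.14 in control blood and was not well above background in NNK blood. After normalization within blood it was at least 1.87-fold lower in NNK blood. Under normexp its log2 difference was -0.48, so that neither this bound nor a 2-fold difference was established. The other 2 probes of Cdkn1c differed by -0.84 and -0.87 on the log2 scale. Igf2 differed by -0.97, Dlk1 by -0.75, Plagl1 by -0.34 and Ndn by -0.36, so that 8 of the 9 differences, 3 of them from Cdkn1c, were below 0, as were 53.8% of all probes. On each blood array 1 of the 3 spots of H19 carried an outlier mark and was left out. Blood cell markers differed between the clots. The summed signal of neutrophil markers was 15200 in control blood and 71400 in NNK blood, that of platelet markers was 150000 and 85300, and that of red blood cell markers was 1540000 and 1480000. The part of these cells in the differences was not tested.

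Levels in lung and blood were set side by side after quantile normalization over all 8 arrays, as a description. For 5 of the 9 probes, Igf2, Igf2r, Plagl1, Ndn and the Cdkn1c probe of NM_182735, every lung array was above both blood arrays, as held for 53.5% of 15803 probes with marked spots kept. Igf2r averaged 15.27 in normal lung and 15.38 in lung tumor, the former 6.28 above control blood, and it read 11.31 in NNK blood. Igf2 averaged 10.40 and 10.08 in lung and read 8.63 and 6.84 in blood. For these genes the order ran from normal lung or lung tumor down to blood, and Igf2r was the only one of the 5 with NNK blood above control blood. Plagl1 averaged 12.93 and 9.99 in normal lung and lung tumor and read 8.08 and 7.48 in blood. Ndn averaged 10.77 and 8.98 and read 6.65 and 6.06.

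Dlk1, lower in tumor, did not lie above both blood arrays there after this normalization. It averaged 13.94 in normal lung and 8.56 in lung tumor, and read 8.81 in control blood and 7.44 in NNK blood. On this scale its tumor level was between those of the blood samples. Before normalization its processed signals were 595 to 651 in lung tumor, but 71 in control blood and 97.3 in NNK blood, whose arrays were dimmer. The probes of Cdkn1c disagreed in blood. On this scale the probe of NM_182735 read 8.72 in control blood against 13.40 in normal lung. Those of NM_001033757 and NM_001033758 read 12.57 and 12.70 in control blood. Their normal lung means were 13.25 and 13.36 and their tumor means 10.66 and 10.82. After a 75th percentile shift these probes read 2.65 and 2.82 in control blood. Their normal lung means were then 4.01 and 4.10 and their tumor means 1.26 and 1.42. Before normalization their processed signals in control blood, 598 and 673, were below every tumor array (lowest 2760 and 3250). Their place between lung and blood thus depended on the normalization. H19 averaged 4.47 in normal lung and 5.85 in lung tumor and read 5.99 in control blood, next to its highest tumor array at 5.98. After a 75th percentile shift in place of quantile normalization, control blood was farther above the tumor mean of H19 (-2.12 against -4.06). Before normalization, however, the H19 spots without an outlier mark read 21.4 and 22.4 in control blood, against 59 to 92.1 in lung tumor. NNK blood, not well above background for H19, was not ranked.

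**Figure D5:**
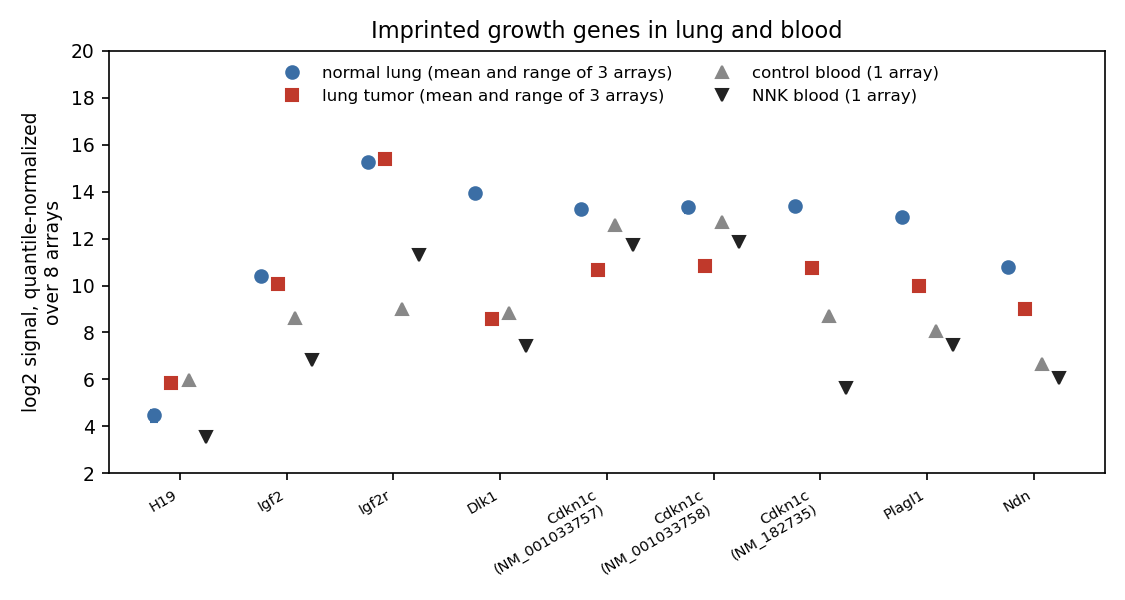
Log2 signal of the 9 probes, quantile-normalized over 8 arrays, with means and ranges (bars, mostly smaller than the symbols) over 3 normal lung and 3 lung tumor arrays and single values for control and NNK blood (H19 in NNK blood was not well above background). Igf2r is far lower in blood than in lung. After this normalization Dlk1 in tumor lies near its blood values, although its processed signals were 595 to 651 in tumor and 71 and 97.3 in blood. Levels are to be compared within a probe, not between probes.

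The mRNA probes whose pattern was most like that of H19 were found by the root mean square difference of log2 signals, each centred on its own mean, over the 6 lung arrays among 7274 probes. They were Casp8, the initiator caspase of death receptors (difference 0.0473), Mybphl (0.0687), Rasgef1c (0.092), Gpr84, a fatty acid receptor (0.0934), and Ggct, an enzyme of glutathione breakdown (0.109). Their log2 fold changes in tumor ran from 1.44 to 1.56, beside 1.52 for H19. This closeness follows from the selection on the same 6 arrays and is not a separate result. Near-identical arrays were not merged for this measure.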

How the data were processed

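Total RNA of 3 normal lung tissues, 3 lung tumors and 2 blood clots was labelled in 1 colour on the Arraystar rat lncRNA array. The authors deposited processed signal intensities of Agilent Feature Extraction 10.5.1.1 (background-subtracted) and log2 values, which they had quantile-normalized over 8 arrays. No replicates were pooled, and the number of arrays limits the precision. Here quantile normalization was applied to the log2 of these signals within the 6 lung arrays, within the 2 blood arrays, or over all 8 arrays (R 4.3.3, limma 3.58.1). Spots marked as non-uniform or population outliers were left out and the others of a probe averaged. A probe was well above background on an array where over 50% of its spots were, and probes so on at least 3 lung arrays, with 2 values per group, were tested by lmFit and eBayes with group as the only term and Benjamini-Hochberg adjustment. In blood a probe had to be well above background on 1 of the arrays. A bound sets the brighter group against the lowest signal well above background. The scripts were tested on simulated data.

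All probes of the genes were named, and of the other lists up to 5 called rises and falls, the genes next to H19 in the reference and the 5 most like H19. The genes and lists were chosen with earlier results of these data known. Of the 24684 probes, 14294 matched a RefSeq gene of GRCr8, and the authors' design build was rn4, so no coordinates of probes are given.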

Additional observations from a re-analysis of the deposited data

How the results depend on the processing

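The count of 7 called probes in lung (1 higher, 6 lower) was recomputed under 19 alternatives, 1 of them (the authors' normalized values, dim probes included) chosen after seeing the data. It was 6 with normexp, where H19 fell below the threshold (0.60). Normexp added an offset of 50, above the H19 signals of the normal lung arrays (20.8 to 24.9), and the part of the offset was not tested. The fit counting near-identical arrays once is set aside, since its normal lung is a single sample assumed to vary like the tumors. In the other alternatives the count was 7, also when each array was left out in turn (7 to 7). Leaving out a normal array, or lung tumor 2 or 3, keeps a near-identical array, so these fits test little. No fold change of the 9 probes turned its direction. H19 ranged from 0.60 to 1.73, Igf2 from -0.59 to -0.21 and Igf2r from 0.05 to 0.14. With the methods' t-test the adjusted p of Igf2r was 0.0465, at a log2 fold change of 0.09. The labels call the tumors matched, but do not say that equal numbers mark the same rat, so the main fit did not pair them. The deviations of same-numbered samples correlated at 0.14, -0.04 and 0.16. These values cannot decide the pairing, because the normal arrays differed from each other by about the noise between spots. With the replicate number as a block, limma called 7 probes and gave H19 at 1.52 (adjusted p = 0.0027), so the block changed no call of these probes. In blood, with H19 taken at its measured value although it was not well above background in NNK blood, 3 of 9 probes were at least 2-fold apart after normalization within blood, 5 with the 75th percentile shift, 5 with quantile normalization over 8 arrays, 5 with the authors' values and 1 (Igf2r) with normexp; the cause was not tested. The 5 probes above blood on every lung array numbered 5 on both other scales, and the 10 calls of other imprinted genes were 11 with marked spots kept, also chosen after seeing the data.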
